A study of Homo sapiens with 3 samples.

Results

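The cytosolic heat shock proteins described here were 10 genes taken by exact name from the gene tables: HSPA1A, HSPA1B, HSPA8, HSPH1, HSP90AA1, HSP90AB1, DNAJB1, DNAJA1, HSPB1 and HSF1. They are 10 of 58243 genes in the tables. HSPA1A and HSPA1B share most of their coding sequence and were summed, which leaves 9 entries. All of them were measured well above 50 reads in every library, so no filter on low values removed a member.

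The cells are labelled LoVo, an established human line from a colorectal carcinoma. They held a Tet-On short hairpin RNA against HRD1, which is made when doxycycline is added. HRD1, encoded by SYVN1, is the ubiquitin ligase that marks misfolded proteins of the endoplasmic reticulum (ER) for degradation. The cells received doxycycline at 1 µg/ml for 0, 3 or 5 days, and all 3 groups carried the hairpin. The stated question was the effect on the transcriptome of the ER stress that HRD1 knockdown brings, and no hairpin of another sequence and no doxycycline without a hairpin is among the libraries used here.

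Heat shock proteins of the cytosol hold unfolded proteins and help them refold. HSP70 proteins bind short exposed stretches of a client, J-domain proteins bring clients to HSP70 and drive its ATP cycle, exchange factors release the client, and HSP90 proteins act on late folding steps of kinases and receptors. When unfolded protein builds up in the cytosol, the transcription factor HSF1 binds heat shock elements, made of inverted repeats of GAA, and raises the inducible members. Unfolded protein in the ER is sensed by other proteins, which act through ER stress elements in genes such as HSPA5 (BiP) and HSP90B1 (GRP94), the ER relatives of HSP70 and HSP90.

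There was 1 library per day, so no difference had a replicate check and none was tested. Each ratio compares libraries, not conditions, and the 95% exact intervals in square brackets hold counting error alone. In such bulk libraries, fewer cells of a type and less RNA per cell cannot be told apart. Gene reads came to 21308785 at day 0, 22068686 at day 3 and 25754188 at day 5, and SYVN1 had 1212, 650 and 709 of them. Its log2 ratio was -0.88 [-1.02, -0.74] at day 3 over day 0 and -1.05 [-1.19, -0.92] at day 5 over day 0. Of 12 colon epithelial markers, 3 (KRT8, KRT18 and KRT19) reached 1 TPM (the authors' level, scaled by transcript length) in each library. The others, EPCAM, CDH1 and VIL1 among them, stayed below 1 TPM, and CDX1 and CDX2 had 0 reads in all 3. Of 10 mesenchymal markers, 7 reached 1 TPM, with a summed level of 4164 TPM at day 0 against 1331 TPM for the epithelial list. These markers do not bear out the LoVo label, and the identity of the cells was not tested. Of 14 liver and blood markers, 1, 2 and 11 reached 1 TPM at days 0, 3 and 5, with ALB at 0, 0 and 114 reads. SERPINA1 held 19332, 17422 and 20571 of the 19340, 17485 and 21209 reads of the 14. Their summed level of 799, 668 and 740 TPM therefore says little about the other markers, more of which reached 1 TPM at day 5. The part of these markers in the day 5 values below was not tested.

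The promoters of the members and of the 2 ER relatives are shown first, with the heat shock elements and ER stress elements found in them. Of the 10 members, 9 had an entry in the RefSeq promoter table for GRCh38.p14, and the 250 bases before each start were searched on both strands. The search used the 2-unit heat shock elements GAANNTTC and TTCNNGAA, each its own reverse complement, the 3-unit elements, which are GAANNTTC continued by NNGAA and TTCNNGAA continued by NNTTC, reverse complements of each other that contain the 2-unit forms, and the ER stress element, which is CCAAT and CCACG with NNNNNNNNN between them. Of 35116 promoters, 11.6% held a 2-unit heat shock element, 0.441% a 3-unit element and 0.074% an ER stress element. Among the 9 members, 5 held a 2-unit element (HSPA1A, HSPA1B, HSPA8, HSPB1 and DNAJA1), 1 held a 3-unit element and 0 held an ER stress element. HSPH1, HSP90AA1, HSP90AB1 and DNAJB1 held none of these. Only 1 start per member was searched, so an element at another start of the same gene is not counted. The window of HSP90AA1 lay just upstream of its gene model, and that of DNAJB1 lay inside its model near the upstream end. Starts further downstream within these genes were therefore not searched, and no statement about them is made. The 35116 promoters were not reduced to 1 start per gene. A match is a description of letters and not a bound site. The sequences are given 5′ to 3′ on the strand of the gene with the element in capitals.
HSPA1A, chr6:31815377-31815458, plus strand: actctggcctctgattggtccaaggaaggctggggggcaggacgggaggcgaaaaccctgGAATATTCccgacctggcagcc
HSPA1B, chr6:31827573-31827654, plus strand: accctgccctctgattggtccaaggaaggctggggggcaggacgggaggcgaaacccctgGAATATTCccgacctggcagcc
HSPA8, chr11:123062346-123062374, minus strand: gcgagcttGAAAGTTCCAGAAcgctgcgg
HSPA8, chr11:123062171-123062199, minus strand: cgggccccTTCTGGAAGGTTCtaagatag
HSPB1, chr7:76302480-76302509, plus strand: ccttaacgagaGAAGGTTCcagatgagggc
DNAJA1, chr9:33025064-33025093, plus strand: aaagggctccaGAAGATTCcacgagcgccg
HSPA5, chr9:125241377-125241469, minus strand: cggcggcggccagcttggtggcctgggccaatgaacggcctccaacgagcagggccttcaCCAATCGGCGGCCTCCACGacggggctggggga
HSP90B1, chr12:103930211-103930239, plus strand: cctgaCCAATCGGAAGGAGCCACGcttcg
HSP90B1, chr12:103930316-103930344, plus strand: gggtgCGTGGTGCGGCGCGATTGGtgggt

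HSPA1A and HSPA1B carried the same 8 letters at nearly the same place, the first base at -106 and -105 from their starts. HSPA8 held the 3-unit element at 2 places, -230 and -55. The elements of HSPB1 and DNAJA1 began at -182 and -198. HSPA5 held 1 ER stress element, at -66, and HSP90B1 held 2, at -194 and -89, the second on the opposite strand. The windows of HSPA8, DNAJA1 and HSP90B1 overlap an exon of some transcript annotated in GENCODE 29. Positions are counted from the RefSeq starts, which can differ from the gene coordinates given below. The HSPA8 windows lie inside the gene as given there.

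The members were abundant before doxycycline and remained so. Together they held 0.876%, 0.912% and 0.859% of all gene reads and 0.993%, 0.997% and 0.956% of all TPM at days 0, 3 and 5. HSPA8, HSP90AA1 and HSP90AB1 made up 71.6%, 71.8% and 72.3% of the members' TPM. In TPM, the order at day 0 was HSP90AB1 at 3190, HSP90AA1 at 2074, HSPA8 at 1849, the HSPA1A and HSPA1B sum at 843, HSPB1 at 692, DNAJA1 at 642, DNAJB1 at 347, HSPH1 at 152 and HSF1 at 141. With 1 library a day no spread between replicates is known, so neighbours in this order were not compared further. HSPB1 stood below DNAJA1 at day 5 (606 and 680 TPM), and HSPH1 below HSF1 at day 3 (124 and 131 TPM).

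**Figure D1:**
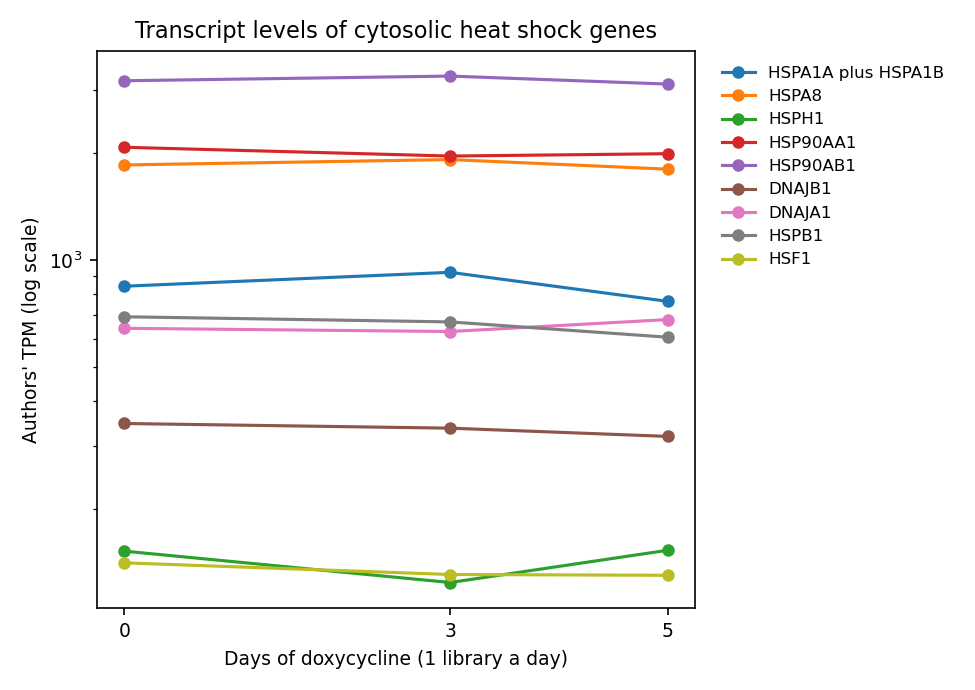
The authors' TPM (log axis) of the 9 entries against days of doxycycline, 1 library a day. The lines lie almost level, with HSP90AB1 highest at 3190, 3288 and 3122 TPM and HSF1 and HSPH1 lowest.

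At neither day was any of the 9 entries 1.5-fold higher or lower than at day 0. A gene was counted where its ratio reached 1.5-fold with an interval excluding 1, which at day 3 held for 1.25% of 12451 genes in the higher and 2.41% in the lower direction. At day 5 over day 0 the shares were 1.88% and 1.32% of 12693 genes, and at day 5 over day 3 they were 2.37% and 0.996% of 12645 genes, with 0 entries in either direction again. Between 96.3% and 96.8% of all genes were likewise not counted, so 0 of 9 is near the background. The comparisons with day 0 share that library.

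At day 3 the median log2 ratio of the entries was 0.09, against 0.01 over all genes, with a range of -0.16 (HSPH1) to 0.26 (the HSPA1A and HSPA1B sum). With the authors' TPM the median was -0.04, but all genes had a median of -0.08 on that scale. With length and GC trends removed it was 0.00, as was that of all genes. With any size allowed, the interval lay above 0 for 7 entries, below 0 for 1 and across 0 for 1, where 25.4% of all genes lay above and 20.8% below. At day 5 over day 0 the median was -0.05, against 0.01 over all genes, with 1 entry above 0, 7 below and 1 across (22.8% and 22.3% of all genes). Uniquely placed reads gave -0.01 there, with 2 above, 4 below and 3 across (22.1% and 21.5% of all genes). At day 5 over day 3 the median was -0.19, against 0.00 over all genes, with 1 entry above, 7 below and 1 across (24.0% and 26.0% of all genes). In each comparison these interval counts depend on depth, because more reads narrow the interval. The entries had 3861 to 63347 reads, whereas the shares cover every gene with a mean of at least 50 reads. The counts and shares were not matched for depth, so no shared shift of the entries is read from them.

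**Figure D2:**
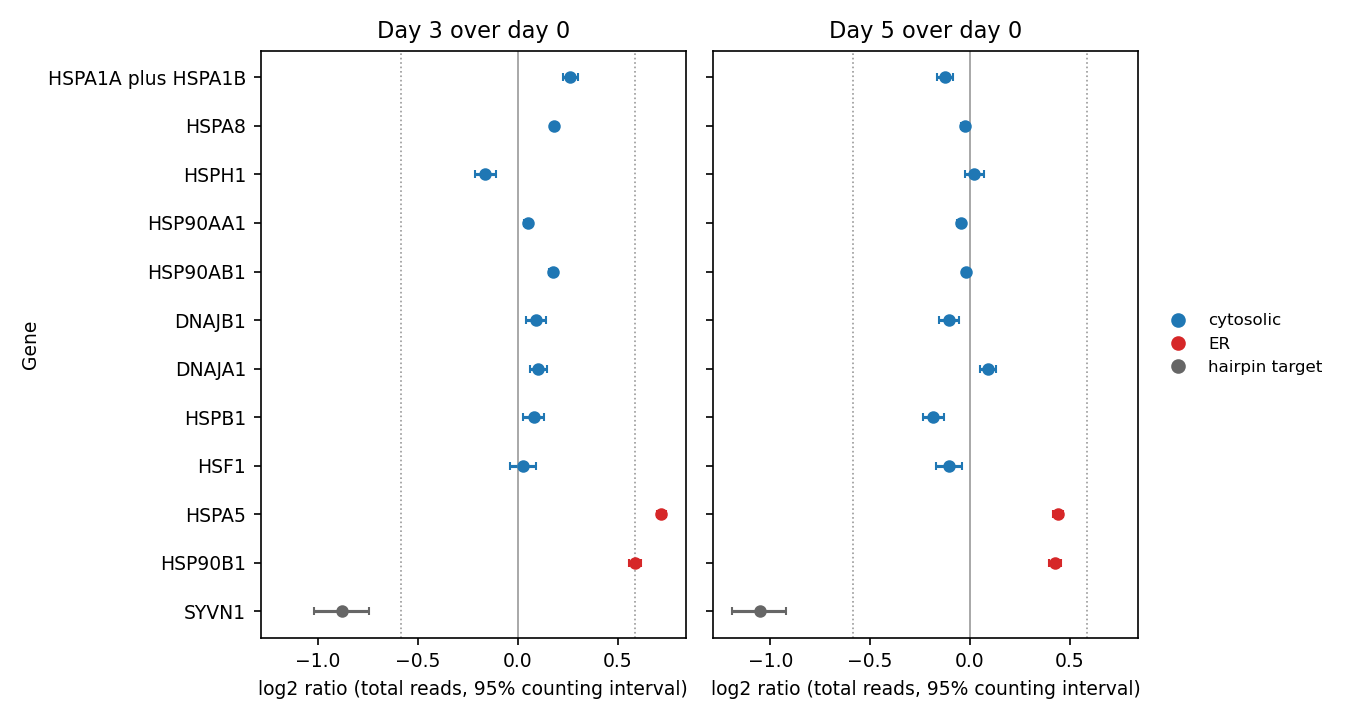
Log2 ratios of total reads at day 3 and day 5 over day 0, with 95% counting intervals, for the 9 entries (blue), the ER relatives HSPA5 and HSP90B1 (red) and SYVN1 (grey); dotted lines mark 1.5-fold. Every blue point lies between the dotted lines, and HSPA5 lies at 0.72 and 0.44.

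HSPA1A (ENSG00000204389, chromosome 6, 31815464 to 31817946, plus strand, GRCh38 throughout) and HSPA1B (ENSG00000204388, chromosome 6, 31827735 to 31830255, plus strand) encode the main stress-inducible HSP70. Of 1827 windows of 100 bases in the HSPA1B coding sequence, 90.9% occurred without a mismatch in HSPA1A, whereas 0 of the windows within its 5′ or 3′ untranslated regions did. Most reads from the coding part therefore could not be assigned to one copy. The sum had 10492, 12451 and 11688 reads at days 0, 3 and 5, of which 3275, 4004 and 4154 were uniquely placed. The day 3 library was the highest of the 3 after normalisation, at 583 CPM (reads scaled to library size) against 486 CPM at day 0, and the day 5 library had 445 CPM.

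The log2 ratio of the sum was 0.26 [0.23, 0.30] at day 3 over day 0, and 0.30 [0.24, 0.37] from unique reads. It was positive under every alternative, between 0.11 and 0.30. At day 5 over day 0 it was -0.13 [-0.16, -0.09] from total reads and 0.08 [0.01, 0.15] from unique reads, so its direction depends on which reads are counted. At day 5 over day 3 it was -0.39 [-0.43, -0.35], and -0.22 [-0.29, -0.16] from unique reads.

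Taken singly, HSPA1A had 1104, 1328 and 882 total reads and 102, 148 and 107 unique reads, and HSPA1B had 9388, 11123 and 10806 total reads and 3173, 3856 and 4047 unique reads. HSPA1A thus held 10.5%, 10.7% and 7.55% of the total reads of the sum, but 3.11% [2.55, 3.77], 3.70% [3.13, 4.33] and 2.58% [2.12, 3.10] of its unique reads (Clopper-Pearson). Of the HSPA1A reads only 9.24%, 11.1% and 12.1% were uniquely placed, so its total rests mostly on reads shared with HSPA1B. HSPA1A alone had a log2 ratio of -0.60 [-0.73, -0.48] at day 5 over day 0 from total reads, past 1.5-fold (1.32% of all genes were), and -0.20 [-0.60, 0.21] from unique reads. At day 5 over day 3 it was -0.89 [-1.01, -0.76] from total reads and -0.74 [-1.12, -0.38] from unique reads, past 1.5-fold in both (0.996% of all genes were lower by that much from total reads). It lay between -0.90 and -0.68 under every setting, but only the unique reads leave out the shared reads. The entries count it within the sum only.

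**Figure D3:**
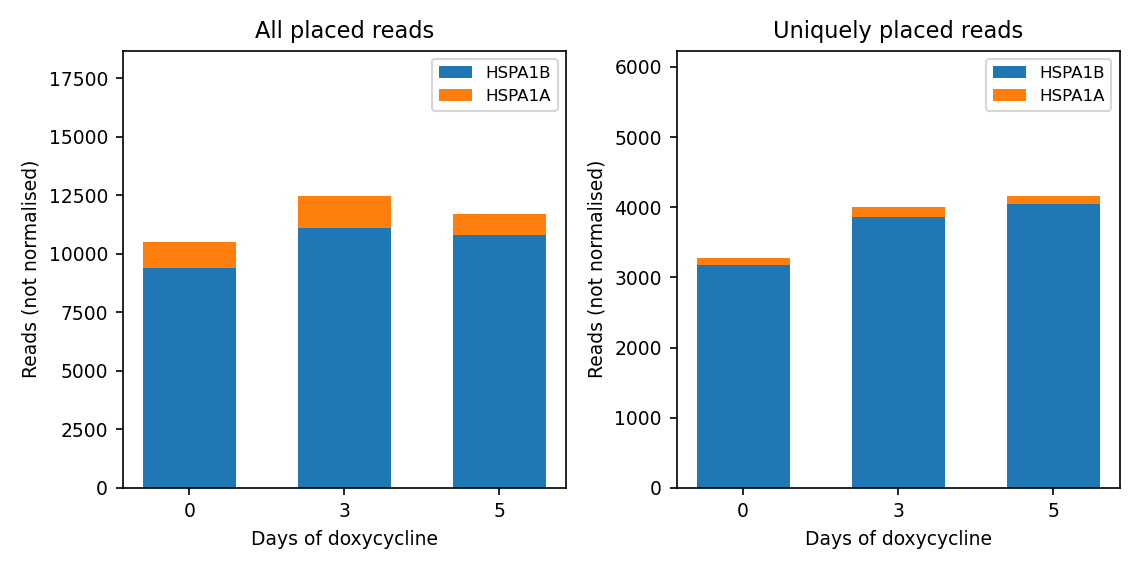
Reads of HSPA1B (blue) and HSPA1A (orange), not normalised, at each day of doxycycline; all placed reads are on the left and uniquely placed reads on the right. HSPA1A is the smaller part of each bar, 10.5%, 10.7% and 7.55% on the left and 3.11%, 3.70% and 2.58% on the right.

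HSPA8 (ENSG00000109971, chromosome 11, 123057489 to 123063230, minus strand), the constitutive HSP70 of the cytosol, had 44339, 49745 and 52920 reads. Its log2 ratio was 0.18 [0.16, 0.20] at day 3 over day 0, -0.03 [-0.04, -0.01] at day 5 over day 0 and -0.21 [-0.23, -0.19] at day 5 over day 3. From unique reads the day 5 over day 0 value of HSPA8 was -0.01 [-0.03, 0.01], an interval across 0. The day 3 library was again the highest after normalisation, under every alternative. Reads of the HSPA1A and HSPA1B sum per HSPA8 read, a ratio within 1 library that needs no normalisation, were 0.237, 0.250 and 0.221. That ratio was 1.06-fold [1.03, 1.09] at day 3 over day 0 and 0.933-fold [0.906, 0.961] at day 5 over day 0. From unique reads it was 1.09-fold [1.04, 1.14] and 1.06-fold [1.01, 1.11], so the day 5 direction again depends on which reads are counted. A ratio within 1 library does not cancel length and GC trends. With these removed, the log2 ratio at day 3 over day 0 was 0.11 for the sum and 0.15 for HSPA8. The day 3 direction of their ratio is therefore not settled either.

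HSPH1 (ENSG00000120694, chromosome 13, 31134974 to 31162388, minus strand), or HSP110, is an exchange factor for HSP70. It had 6418, 5671 and 7909 reads, all uniquely placed, and day 3 was the lowest of the 3 libraries. The log2 ratio was -0.16 [-0.21, -0.11] at day 3 over day 0 and lay between -0.29 and -0.07 across the alternatives. It was 0.02 [-0.03, 0.07] at day 5 over day 0 and 0.18 [0.13, 0.23] at day 5 over day 3. The day 5 over day 3 value lay between 0.02 and 0.30 across the alternatives, and was lowest with length and GC trends removed. Per HSPA8 read, HSPH1 at day 3 was 0.788-fold [0.758, 0.818] its day 0 value.

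HSP90AA1 (ENSG00000080824, chromosome 14, 102080738 to 102139699, minus strand), the inducible HSP90, had 53851, 55106 and 63347 reads. HSP90AB1 (ENSG00000096384, chromosome 6, 44246166 to 44253888, plus strand), the constitutive HSP90, had 47043, 52541 and 56451. The log2 ratio of HSP90AA1 was 0.05 [0.03, 0.07] at day 3 over day 0, and -0.08 with the authors' TPM, where the median of all genes was also -0.08. It was -0.05 [-0.06, -0.03] at day 5 over day 0. That of HSP90AB1 was 0.18 [0.16, 0.19] at day 3 and -0.02 [-0.04, -5.1e-05] at day 5. From unique reads the day 5 over day 0 values were -0.03 [-0.05, -0.01] for HSP90AA1 and -0.001 [-0.02, 0.02] for HSP90AB1, the latter across 0. HSP90AA1 reads per HSP90AB1 read were 0.916-fold [0.901, 0.932] at day 3 and 0.980-fold [0.964, 0.997] at day 5, both over day 0, so the inducible gene was the lower of the pair relative to day 0.

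DNAJB1 (ENSG00000132002, chromosome 19, 14514770 to 14529770, minus strand), or HSP40, is the stress-inducible J protein of HSP70. It had 6326, 6659 and 7149 reads and a log2 ratio of 0.09 [0.04, 0.14] at day 3 over day 0. With the authors' TPM it was -0.04, above the median of all genes on that scale. At day 5 it was -0.10 [-0.15, -0.06] over day 0 and -0.20 [-0.24, -0.15] over day 3. Unique reads gave -0.16 [-0.21, -0.11] and -0.25 [-0.30, -0.20] for these. DNAJB1 overlaps TECR on the opposite strand over 12686 bases, and TECR had 3119, 3625 and 3464 reads; whether the counting used strand is not given in the sources used here.

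DNAJA1 (ENSG00000086061, chromosome 9, 33025211 to 33039907, plus strand), a constitutive J protein, had 8736, 9267 and 11314 reads. Its log2 ratio was 0.10 [0.06, 0.14] at day 3 and 0.09 [0.05, 0.13] at day 5, both over day 0. A single alternative was negative in each comparison: the authors' TPM at day 3 (-0.03, above the all-gene median of -0.08) and removal of length and GC trends at day 5 (-0.04). HSPB1 (ENSG00000106211, chromosome 7, 76302544 to 76304295, plus strand), the small heat shock protein HSP27 that holds unfolded clients without ATP, had 5616, 5864 and 6011 reads. Its log2 ratio was 0.08 [0.03, 0.13] at day 3 over day 0, but -0.05 with the authors' TPM and -0.10 with length and GC trends removed. It was -0.18 [-0.24, -0.13] at day 5 over day 0, negative under every alternative.

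HSF1 (ENSG00000185122, chromosome 8, 144291591 to 144314722, plus strand), the factor that drives the response, had 3861, 3885 and 4362 reads. Its log2 ratio was 0.03 [-0.04, 0.09] at day 3 and -0.10 [-0.17, -0.04] at day 5, both over day 0. The day 3 value was negative with exon reads, library totals, TPM and trends removed, the lowest -0.11, and the day 5 value was positive with trends removed alone (0.05). HSF1 is regulated mainly on the protein, which these data do not measure.

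The ER relatives differed from the members in size. HSPA5 had 23137, 37668 and 38151 reads and log2 ratios of 0.72 [0.70, 0.74] at day 3 and 0.44 [0.42, 0.46] at day 5 over day 0. HSP90B1 had 15798, 23437 and 25769 reads and log2 ratios of 0.59 [0.56, 0.62] and 0.43 [0.40, 0.45]. HSP90B1 at day 3 lies on the 1.5-fold line, and its unique reads gave 0.58 [0.55, 0.61].

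Ratios within a library show the same contrast without normalisation. HSPA5 reads per HSPA8 read were 0.522, 0.757 and 0.721 at days 0, 3 and 5, which is 1.45-fold [1.42, 1.48] at day 3 and 1.38-fold [1.35, 1.41] at day 5 over day 0. HSPA5 per read of the HSPA1A and HSPA1B sum was 1.37-fold [1.33, 1.41] and 1.48-fold [1.43, 1.53] from total reads, and 1.33-fold [1.27, 1.40] and 1.30-fold [1.24, 1.36] from unique reads. HSP90B1 per HSP90AA1 read was 1.45-fold [1.42, 1.48] and 1.39-fold [1.36, 1.42], and per HSP90AB1 read 1.33-fold [1.30, 1.36] and 1.36-fold [1.33, 1.39]. Each of these intervals lay above 1.

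**Figure D4:**
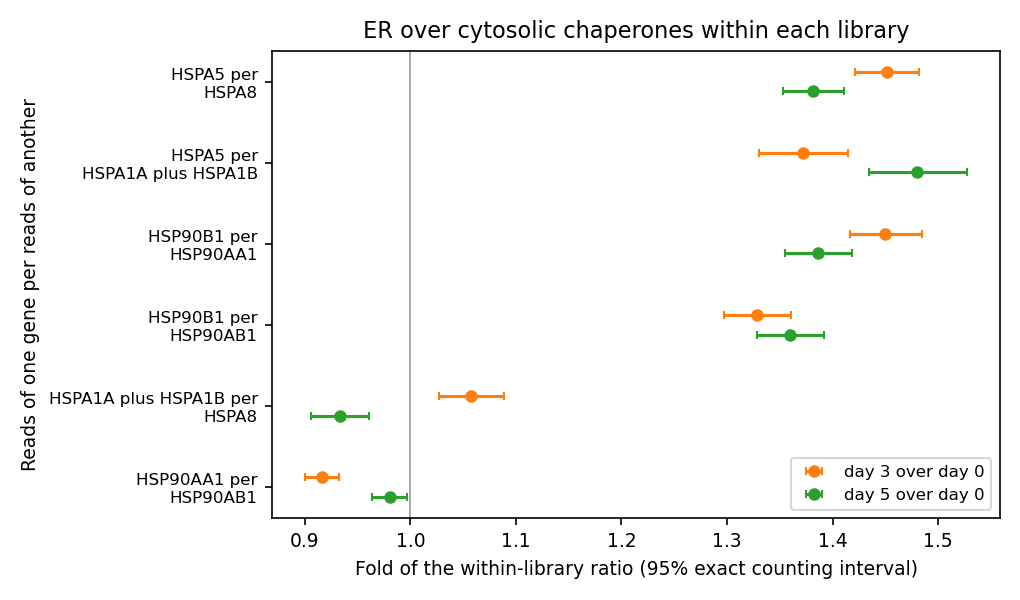
Fold of the ratio of total reads between 2 genes of one library, day 3 (orange) and day 5 (green) over day 0, with 95% exact counting intervals. The 4 ER over cytosolic ratios lie between 1.33 and 1.48, and the 2 plotted ratios between cytosolic genes lie between 0.916 and 1.06. HSPH1 per HSPA8, not plotted, was 0.788-fold at day 3 and 1.03-fold at day 5.

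Other chaperones were described by list, with genes of a mean of at least 50 reads over the 3 libraries counted as measured. Of the HSP70 family and exchange factors, 13 of 16 were measured, with 0 past 1.5-fold at either day and median log2 ratios of -0.01 at day 3 and -0.01 at day 5 over day 0. Of the cytosolic J-domain proteins, 15 of 19 were measured, with 0 past 1.5-fold and medians of 0.04 and 0.02; DNAJC6, the auxilin that uncoats clathrin vesicles, was lowest at -0.46 and -0.47. All 19 HSP90 co-chaperones were measured, with 0 past 1.5-fold and medians of 0.14 and 0.07, and AHSA1, the activator of the HSP90 ATPase, had 0.28 and 0.04. All 14 genes of the TRiC chaperonin and prefoldin, which fold actin and tubulin, were measured, with 0 past 1.5-fold and medians of 0.16 and 0.05. At day 3, 13 of those 14 intervals lay above 0, against 25.4% of all genes, a share not matched for depth. The median was 0.03 with the authors' TPM, where that of all genes was -0.08, and 0.11 after removal of length and GC trends.

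Known HSF1 target genes outside the members gave medians of 0.12 and 0.04 over 22 of 24 measured, with 1 past 1.5-fold at each day: RGS2 at day 3 (0.81 [0.34, 1.31], with 58, 101 and 94 reads at days 0, 3 and 5) and HSPE1 at day 5 (0.65 [0.57, 0.73]). Over all genes, 1.25% were past 1.5-fold higher at day 3 and 1.88% at day 5. Most of these HSF1 targets also belong to the other lists, HSPE1, BAG3 and AHSA1 among them, so the lists are not separate groups of genes. BAG3, an inducible exchange factor, had 2776, 2999 and 3110 reads and log2 ratios of 0.13 [0.05, 0.20] and -0.12 [-0.19, -0.04]. HSPA6, an HSP70 gene that is nearly silent without heat shock, had 18, 29 and 33 total reads but 0, 0 and 2 unique reads, with 3 unique reads as the floor (0.156, 0.158 and 0.130 CPM), so no fold is given. The 15 ER chaperones gave medians of 0.35 and 0.17, with 4 past 1.5-fold at day 3 (HSPA5, HSP90B1, DNAJB9 and SDF2L1, against 1.25% of all genes) and 0 at day 5. HSP90B1 was not past 1.5-fold from unique reads.

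**Figure D5:**
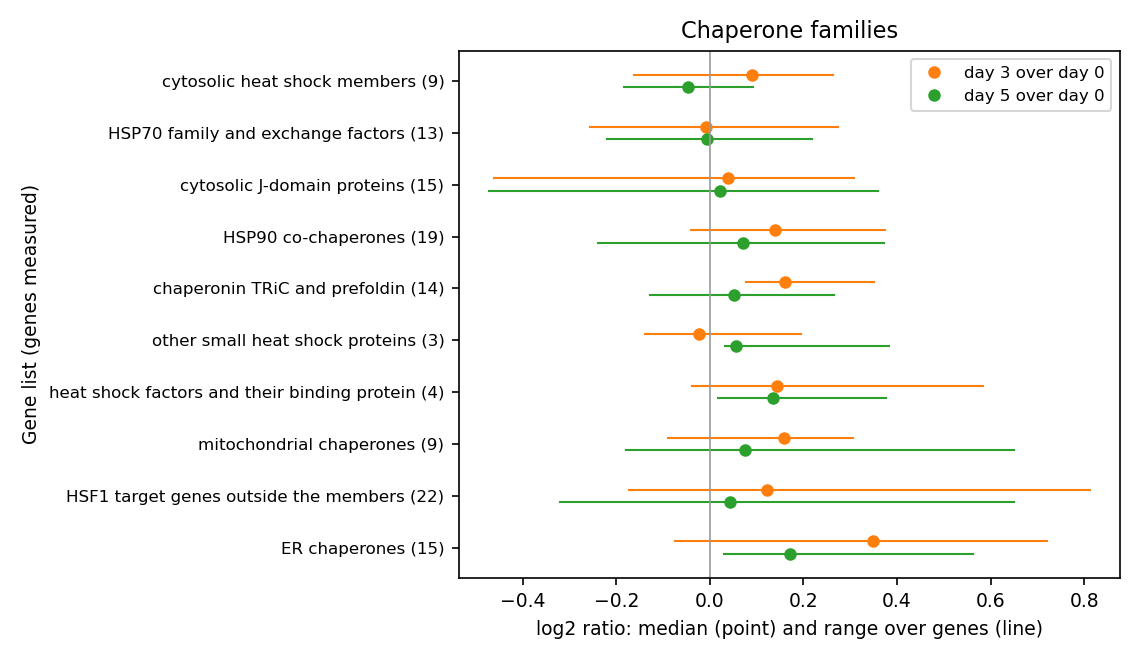
Median (point) and range (line) of the log2 ratio over the measured genes of each chaperone list, day 3 (orange) and day 5 (green) over day 0, with the number measured in brackets. The HSF1 target list shares most of its genes with the other lists. The ER chaperones have the highest day 3 median at 0.35, and the 9 cytosolic entries lie at 0.09 and -0.05.

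The genes whose pair of log2 ratios (day 3 and day 5 over day 0) lay nearest to that of the HSPA1A and HSPA1B sum were SPATC1L, ACBD6, MIF4GD, PEX16 and COA4, by Euclidean distance among 7423 protein-coding genes over 3 libraries. SPATC1L was nearest, at a distance of 0.0074. With only 3 libraries the pattern is common: 244 genes (3.29%) lay within 0.1.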

How the data were processed

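RNA-seq was analysed from 3 libraries, 1 per day of doxycycline. The deposited tables hold, per the file headers, read counts per gene (total and unique gene reads, exon, junction and intron reads), the authors' TPM and an exon length. Aligner, counter and use of strand: not given in the sources used here. Build mm10, of the mouse, is what the submitters' processing notes name, but all identifiers are human Ensembl ones: GENCODE 29 holds 57980 of the 58243, with start and end on GRCh38 equal for 97.6%. A further table of the whole series, with 3 sample columns, was not used.

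Counts were used as deposited. No molecular identifiers are mentioned, and the intervals and floors hold counting error alone. Depth was 21308785 to 25754188 gene reads, of which 87.6% to 89.2% were unique. Total reads were normalised with TMM (edgeR 4.0.16, R 4.3.3), and log2 ratios used a prior count of 0.5 with exact conditional (Clopper-Pearson) 95% intervals. A ratio counted if it was 1.5-fold or more and its interval excluded 1, and the background was every gene whose mean reached 50 reads in the 2 libraries compared. Gene lists used the mean over the 3 libraries. Named genes were all members, SYVN1, HSPA5, HSP90B1, BAG3, HSPA6, up to 4 genes per list with the largest ratios, and the 5 genes most like the HSPA1A and HSPA1B sum (mean of at least 200 reads, at least 90% unique). Promoter sequences are from RefSeq, GRCh38.p14.

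The members and lists were chosen with earlier results of these data known. Alternatives were size factors from DESeq2 1.42.0, library totals without TMM, unique reads, exon reads, the authors' TPM (0.5 added before the log), a prior count of 5, normalisation without mitochondrial genes and the 20 most abundant genes, removal of length and GC trends (lowess, span 0.3), and other minimum means. The software was scipy 1.17.1, statsmodels 0.14.6, pandas 2.3.3, numpy 2.4.6 and matplotlib 3.10.9 in Python 3.11.15. On simulated counts with counting error alone, the intervals covered the set ratio for 95.0% to 95.5% of genes. Those counts held no spread between libraries, so the simulation does not bear on such spread here.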

Additional observations from a re-analysis of the deposited data

How the results depend on the processing

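No entry passed 1.5-fold in either direction in any of the 3 comparisons under any alternative run. The median of the entries at day 3 over day 0 was 0.023 with library totals, -0.044 with TPM and 0.0029 with trends removed; at day 5 over day 0 it was -0.0085 from unique reads; at day 5 over day 3 it was -0.17 (unique reads), -0.16 (exon reads), -0.12 (library totals), -0.075 (TPM) and -0.072 (trends removed). The HSPA1A and HSPA1B sum at day 3 over day 0 was 0.30 (unique reads), 0.23 (exon reads), 0.20 (library totals), 0.13 (TPM) and 0.11 (trends removed); at day 5 over day 0 it was 0.079 (unique reads) and -0.074 (trends removed); at day 5 over day 3 it was -0.22 (unique reads), -0.31 (library totals), -0.27 (TPM) and -0.19 (trends removed). Library totals move every gene alike: the median of the entries minus that of all genes was 0.080 at day 3 over day 0 and -0.19 at day 5 over day 3, the same as with TMM. The medians of all genes were -0.056 (library totals) and -0.083 (TPM) at day 3 over day 0, and 0.075 and 0.088 at day 5 over day 3. Relative to all genes, the entries' median with TPM was 0.039 and -0.16. The cause of the other differences was not tested. Of 80 values for single members per comparison, 10, 4 and 6 took the other sign at day 3 over day 0, day 5 over day 0 and day 5 over day 3, of which 7, 0 and 3 were under TPM or library totals. Taken relative to the median of all genes, a comparison added after the results were seen, 4, 4 and 4 did.

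The share of all genes past 1.5-fold depended on the minimum mean. With 10 reads the higher and lower shares were 2.32% and 4.06% at day 3 over day 0, 3.35% and 2.67% at day 5 over day 0, and 4.32% and 2.05% at day 5 over day 3. With 200 reads they were 0.442% and 0.683%, 0.596% and 0.323%, and 0.668% and 0.353%, and with no minimum 2.24% and 3.62%, 3.05% and 2.63%, and 3.89% and 2.04%. Taking the mean of 50 reads over the 3 libraries, an alternative added after the results were seen, gave 1.29% and 2.53%, 1.75% and 1.28%, and 2.28% and 0.969%. No paired analysis was possible because each day has 1 library, and for the same reason no library could be left out. TPM carries no interval, so it was counted by size alone.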

Other observations

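Among mitochondrial chaperones, HSPE1, the HSP10 lid of the mitochondrial chaperonin, had 2102, 2479 and 4006 reads at days 0, 3 and 5, with log2 ratios of 0.25 [0.17, 0.34] at day 3 and 0.65 [0.57, 0.73] at day 5 over day 0. HSPD1, the HSP60 barrel it caps, had 13693, 15879 and 17527 reads, with 0.23 [0.20, 0.26] and 0.08 [0.04, 0.11]. All 9 mitochondrial chaperones were measured, and HSPE1 was the 1 past 1.5-fold at day 5, against 1.88% of all genes in the higher direction. The medians of the 9 were 0.16 and 0.08. UBB, a polyubiquitin gene, had 13901, 16268 and 13534 reads, with 0.24 [0.21, 0.28] at day 3 and -0.32 [-0.35, -0.29] at day 5 over day 0, and unique reads, 68.8% of the total, gave 0.29 and -0.41. Of the heat shock factors and their binding protein, 4 of 5 were measured, with medians of 0.14 and 0.13, and HSBP1, which binds HSF1, had 0.21 [0.13, 0.29] and 0.38 [0.30, 0.45]. Of the other small heat shock proteins, 3 of 10 were measured, with medians of -0.02 and 0.06.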
